A study of Mus musculus with 6 samples.

Results

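Venular endothelial cells line the smallest veins, and here they were taken from single-cell RNA sequencing of mouse lower abdominal muscle (LAM) by a rule on counts of unique molecular identifiers (UMIs, each standing for 1 captured transcript). A barcode, which stands for 1 droplet, was kept with at least 1000 UMIs and at most 10% of them from mitochondrial genes. A venular cell then had a UMI of the endothelial genes Cdh5 or Pecam1, a UMI of at least 2 of the 3 genes Selp, Ackr1 and Sele, a UMI of fewer than 2 of the 5 arterial genes Gja4, Gja5, Sema3g, Hey1 and Gkn3, and no UMI of the fibroblast gene Pdgfra or the mural genes Myh11 and Notch3. The rule was met by 2993 of the 63647 barcodes: 449, 238 and 342 in the 3 wild-type (WT) mice and 856, 526 and 582 in the 3 Aromhum mice. These genes chose the cells, so their levels are given below as a description, with no test.

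All 6 mice were males of 9 to 10 weeks on the FVB/N background. The Aromhum mice, labelled Arom, carry the human aromatase gene CYP19A1 under its own tissue-specific promoters and had scrotal hernias, and the WT mice were unaffected controls. The muscle was digested with collagenase II and dispase, multinucleated fibers were filtered out, and each mouse gave 1 library, so the mouse was the replicate (n = 3 per genotype). The transgene was barely seen in the cells described here: venular cells held 7, 9 and 2 of the 770, 797 and 787 CYP19A1 UMIs of the Aromhum libraries, and the WT libraries held 0.

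Postcapillary venules are the segment at which white blood cells leave the blood. Their endothelium keeps P-selectin, the product of Selp, together with von Willebrand factor in Weibel-Palade bodies for rapid release, makes E-selectin (Sele) when cytokines act on it, and carries the atypical chemokine receptor encoded by Ackr1, which binds chemokines without signaling as a usual receptor does. Venules are also the segment where histamine and bradykinin open the vessel wall, and their cells form fenestral diaphragms with Plvap.

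The 3 genes that chose the cells all lie on mouse chromosome 1, and the 250 bases before the start of each, where their promoters lie, are shown with that of Ier5l, the single gene that differed between genotypes at the threshold below. The sequences are from RefSeq for build GRCm38.p6, on the strand of the gene, and capitals mark AGGAAG or its reverse complement, the core bound by ETS factors, a family active in all endothelium.
Selp, chr1:164115014-164115263, plus strand: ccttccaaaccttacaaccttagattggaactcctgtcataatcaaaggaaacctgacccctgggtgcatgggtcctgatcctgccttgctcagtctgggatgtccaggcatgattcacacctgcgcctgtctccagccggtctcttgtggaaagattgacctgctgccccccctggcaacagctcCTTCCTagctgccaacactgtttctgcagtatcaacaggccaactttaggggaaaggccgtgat
Sele, chr1:164047984-164048233, plus strand: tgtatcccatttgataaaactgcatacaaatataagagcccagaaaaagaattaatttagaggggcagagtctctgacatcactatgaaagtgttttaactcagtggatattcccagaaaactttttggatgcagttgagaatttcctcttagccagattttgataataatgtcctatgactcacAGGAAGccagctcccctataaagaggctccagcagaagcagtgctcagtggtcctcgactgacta
Ackr1, chr1:173333504-173333753, minus strand: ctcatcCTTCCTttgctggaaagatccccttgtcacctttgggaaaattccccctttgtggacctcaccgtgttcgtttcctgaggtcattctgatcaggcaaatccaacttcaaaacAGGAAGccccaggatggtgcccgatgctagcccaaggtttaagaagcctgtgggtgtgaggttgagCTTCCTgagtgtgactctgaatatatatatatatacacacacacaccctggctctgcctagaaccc
Ier5l, chr2:30474200-30474449, minus strand: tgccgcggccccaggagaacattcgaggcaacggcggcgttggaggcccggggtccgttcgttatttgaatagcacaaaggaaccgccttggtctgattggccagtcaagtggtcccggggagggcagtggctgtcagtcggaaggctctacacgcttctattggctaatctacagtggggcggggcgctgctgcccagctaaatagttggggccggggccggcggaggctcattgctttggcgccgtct
The ETS core was present 1 time in the Selp stretch, 64 bases before the start, 1 time in that of Sele, 65 bases before it, and 3 times in that of Ackr1, the nearest 66 bases before it. No copy lay in that of Ier5l. Of the same 250 bases before all 32851 starts, 29.5% hold this core on either strand, and it was chosen for display after the sequences were seen. A TATA box (TATAAA, either strand) lay 49 bases before the start of Sele and in none of the other 3 stretches, and 12.4% of all such stretches hold one. The NF-kB consensus, the full estrogen response element (GGTCANNNTGACC), the full glucocorticoid response element (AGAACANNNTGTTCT) and the core of the interferon-stimulated response element (GAAANNGAAA), all searched on both strands, were in none of these 4 promoters, while 3.90%, 0.0639%, 0.00913% and 2.98% of all such stretches hold them. A match or its absence describes the letters in the stretch only.

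The libraries held 64958237 to 111826460 UMIs in 7905 to 13764 barcodes, and 53443 barcodes met the limits on UMIs and mitochondrial share. Venular cells had a median of 7402 UMIs, against 3855 in capillary cells and 6882.5 in arterial cells. Both of those classes met the same endothelial rule and had a UMI of fewer than 2 of Selp, Ackr1 and Sele. Capillary cells had at least 2 of Gpihbp1, Rgcc and Car4 and fewer than 2 of the 5 arterial genes. Arterial cells had at least 2 of the 5 arterial genes. By mouse the venular median ran from 5566 to 9395.5 UMIs and 2004.5 to 2628.5 genes. Of all barcodes, 943 carried a barcode sequence found in more than 1 library, 41 of them venular, and no such sequence was venular in 2 libraries. Doublet scores marked 0.0542% and 0% of barcodes in WT replicates 2 and 3 and 2.04% to 3.31% in the others. Few or no doublets were thus removed in those 2 libraries, and whether the caller worked there was not tested. The deposited columns run in 30 stretches that each list the 6 samples in order, with no stated meaning, and 1 stretch of 3071 barcodes held 87.4% of the venular cells.

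The chosen cells carried the venular markers that the rule did not use. Plvap had a UMI in 98.1% of them, Lrg1 (a secreted glycoprotein of inflamed venules) in 95.7% and Vwf (von Willebrand factor) in 90.3%, against 10.1%, 6.59% and 10.0% of capillary cells. All 3 chosen genes were seen in 76.1% of the cells, Selp and Ackr1 without Sele in 17.2%, Selp and Sele without Ackr1 in 6.41%, and Ackr1 and Sele without Selp in 0.234%. Just outside the rule lay 961 endothelial barcodes with a UMI of 1 of the 3 genes, 632 of them with Selp, 70 barcodes with at least 2 arterial genes, and 650 with a UMI of Pdgfra, Myh11 or Notch3, whose median was 16023.5 UMIs. Fibroblast barcodes, which should lack Ackr1, had a UMI of it in 17.98% at a median of 10989.5 UMIs, and in 2.09% after every barcode was thinned to 1000 UMIs, against 78.0% of venular cells so thinned. Collagen RNA was in the venular cells in turn: 44.0% had a UMI of Dcn and 19.4% of Col1a1, or 10.3% and 4.94% when thinned. The lymphatic gene Lyve1 was seen in 1.57% and the white blood cell gene Ptprc in 1.57%.

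Levels are given as CPM, a gene's UMIs scaled so that all genes of the same cells and mouse add up to 1000000, as mean ± SD over the 6 mice (n = 6). Selp stood at 7171 ± 669 CPM in venular cells, 27.9 ± 13.2 CPM in capillary cells and 189 ± 111 CPM in arterial cells. Ackr1 was at 3136 ± 446 CPM, 4.14 ± 1.35 CPM and 2.89 ± 1.72 CPM in the same order, and Sele at 680.0 ± 61.1 CPM, 2.54 ± 2.30 CPM and 2.83 ± 3.48 CPM. For each of the 3 genes the venular mice lay above all capillary and arterial values, and for Ackr1 and Sele the capillary and arterial values overlapped. The capillary and arterial rules left out cells with at least 2 of these 3 genes, so this gap follows from the rules. The arterial genes were nearly absent: over all venular cells Gja4, a gap junction gene, had 16 UMIs, Gja5 3, Sema3g 24, Gkn3 23 and Hey1 101. Cdh5, the adherens junction cadherin, was at 651 ± 69.2 CPM in venular and 988 ± 101 CPM in capillary cells, and Pecam1 at 913 ± 28.3 CPM and 707 ± 53.5 CPM.

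**Figure D1:**
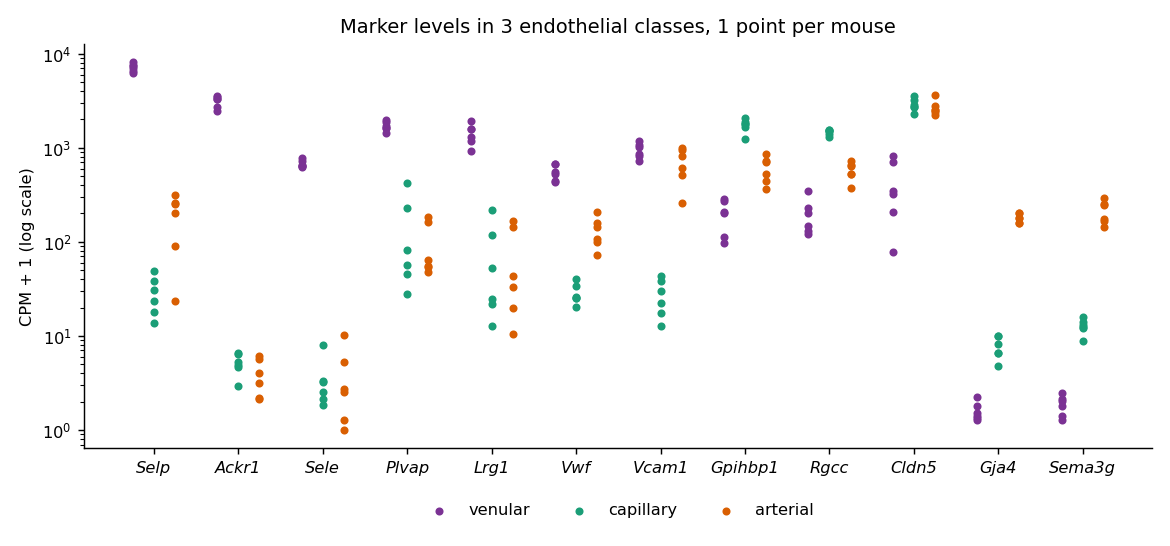
Levels (CPM + 1, log axis) of 12 marker genes in venular, capillary and arterial cells, with 1 point per mouse (3 WT and 3 Aromhum). Selp, Ackr1, Sele, Plvap, Lrg1 and Vwf are highest in venular cells in every mouse, whereas Vcam1 overlaps with arterial cells.

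Outside the genes that set the rule, Olr1, the receptor for oxidized low-density lipoprotein, had the largest smallest ratio over the 6 mice: venular CPM + 1 was 45.3 to 170.4 times the capillary value, at 181 ± 52.2 CPM against 0.766 ± 0.502 CPM. Next came Vcam1, the ligand of leukocyte integrin VLA-4, at 939 ± 173 against 26.4 ± 11.95 CPM, though arterial cells also held 689.7 ± 280.0 CPM of it. Csf3, which encodes the granulocyte growth factor G-CSF, stood at 1434 ± 779 against 53.5 ± 49.3 CPM. Nt5e (CD73, which makes adenosine), Slco2a1 (a prostaglandin carrier) and Hdc (the enzyme that makes histamine) were among the 11 highest by the same measure, with smallest ratios of 18.4, 13.4 and 9.67. Nr2f2, the transcription factor of venous identity, was at 91.1 ± 8.04 CPM in venular, 25.8 ± 5.36 CPM in capillary and 12.4 ± 6.62 CPM in arterial cells. These levels follow the choice of cells and were not tested.

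By gene list, 13 of the 16 venular identity genes beyond the chosen 3 were higher in venular than in capillary cells in all 6 mice, and none was lower in all 6. Of 14 cytokine receptor genes, 11 were higher in all 6 mice, Il1r1 among them, and of 15 hemostasis genes, 9. The opposite held for immediate early genes, of which 15 of 18 were lower in venular cells in all 6 mice, for Notch pathway genes (8 of 11) and for basement membrane genes (10 of 14). Over all 12635 genes at 1 CPM or more in either class, 1869 were higher and 4446 lower in venular cells in all 6 mice. Of 11 capillary identity genes outside the capillary rule, 8 were lower in venular cells in all 6 mice and none was higher in all 6. Meox2 was at 85.5 CPM in venular and 83.7 CPM in capillary cells, and Fabp4, a fatty acid carrier, at 17348 and 18565 CPM (means of 6 mice). Cldn5 of the junction list, the main claudin of tight junctions, was at 414 ± 292 CPM in venular and 2882 ± 457 CPM in capillary cells.

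The venular cells were not uniform. The 192 cells with no UMI of Ackr1 held 2089 ± 1048 CPM of Cldn5 (mean ± SD, n = 6 mice), and the 2801 cells with one held 232 ± 164 CPM. They were higher in all 6 mice also for Gpihbp1 (708 against 146 CPM) and Rgcc (655 against 148 CPM), which mark capillaries, and for the chemokine gene Cxcl10 (999 against 369.8 CPM). In the same cells Olr1 was lower in all 6 mice, at 7.63 against 198 CPM, as were Plvap (871 against 1787 CPM) and Vwf (176 against 580.1 CPM). For Cldn5, Gpihbp1, Rgcc, Olr1, Plvap and Vwf, the cells with no Ackr1 UMI were nearer to the capillary level than the cells with one. The arterial level was nearer still for Cldn5 (2675 CPM) and Vwf (131 CPM), and farther for Plvap (93.2 CPM) and Olr1 (0.334 CPM).

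The 516 cells with no UMI of Sele differed in other genes. The gene with the largest smallest ratio over the 6 mice was Krt18, a keratin that mesothelium also expresses, at 64.7 CPM without and 14.9 CPM with a Sele UMI, and the fibroblast genes Rarres2 (439.9 against 76.1 CPM), Clec3b (370.2 against 63.2 CPM) and Pcolce (60.3 against 29.8 CPM) were higher in all 6 mice too. The part of RNA from those cells was not tested. Icam1, the ligand for leukocyte integrin LFA-1, was at 943 CPM without and 1469 CPM with a Sele UMI, and Vcam1 at 588 and 1003 CPM, both lower without Sele in all 6 mice. Fos, an immediate early gene, was higher in all 6 mice, at 941 against 493 CPM. Plvap was at 1693 and 1702 CPM and was higher without Sele in 3 of 6 mice. These cells were also shallower: the cells with Selp and Ackr1 only had a median of 6132.5 UMIs, against 7722 in cells with all 3 genes, and the part of depth in these differences was not tested.

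Venular cells were a larger share of the endothelium in each Aromhum mouse than in any WT mouse. Of the 15045 endothelial barcodes (kept barcodes with Cdh5 or Pecam1 and none of Pdgfra, Myh11 and Notch3), they were 15.7%, 8.91% and 11.6% in WT and 36.8%, 27.2% and 25.4% in Aromhum mice. Every Aromhum mouse lay above every WT mouse, with 12.05% ± 3.40 against 29.8% ± 6.16 (mean ± SD, n = 3 each), and the 2-sided exact permutation test gave p = 0.1, the smallest that 3 against 3 mice allow. The 95% Wilson intervals of single mice, which cover counting error only, were 7.89% to 10.1% for the lowest (WT replicate 2) and 34.9% to 38.8% for the highest (Aromhum replicate 1). With every barcode thinned to 1000 UMIs the shares were 9.31% ± 2.71 and 25.1% ± 5.64, again without overlap. Barcodes over the mitochondrial limit, which were left out, moved with genotype as well: they were 11.04%, 29.5% and 11.7% of all barcodes in WT and 6.86%, 7.34% and 8.02% in Aromhum mice, without overlap. WT replicate 2 stood apart, with 68.3% of its barcodes kept against 83.8% to 88.99% in the other mice, and without it the venular shares of the endothelium did not overlap either. In the venular cells themselves the median mitochondrial share was 4.12%, 5.30% and 4.05% in WT and 4.56%, 4.51% and 3.88% in Aromhum mice, with overlap. Under the study's own limits on barcodes (at most 2500 genes and 5% mitochondrial UMIs) the venular shares of the endothelium were 14.2%, 7.30% and 7.203% in WT and 34.1%, 26.1% and 17.3% in Aromhum mice, again without overlap (exact permutation p = 0.1). These limits left 1156 of the 2993 venular cells. In WT replicate 2 they left 40 of 238 cells and 291275 of 2515580 UMIs. The part of this loss in the gene results given below under these limits was not tested.

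The capillary share moved the other way, from 58.8%, 64.8% and 59.8% in WT to 29.7%, 36.7% and 39.1% in Aromhum mice, without overlap (exact permutation p = 0.1). Arterial cells were 9.87% ± 2.41 and 8.002% ± 2.31 of endothelium, with overlap (exact permutation p = 0.4). The share of endothelium that met none of these rules was 16.98% ± 1.19 in WT and 27.02% ± 2.96 in Aromhum mice. It did not overlap either (exact permutation p = 0.1), so a higher share in every Aromhum mouse was not particular to venular cells. Endothelial barcodes as a whole were 37.8% ± 5.23 of kept barcodes in WT and 22.2% ± 6.64 in Aromhum mice, without overlap (exact permutation p = 0.1). Against all kept barcodes venular cells were 5.27%, 3.22% and 5.06% in WT and 8.01%, 4.31% and 7.38% in Aromhum mice. Here the genotypes overlapped, as Aromhum replicate 2 lay below 2 WT mice (4.52% ± 1.12 against 6.57% ± 1.98, mean ± SD, exact permutation p = 0.3). The difference of 2.05 percentage points was 3.18 without Aromhum replicate 2 and 1.33 without Aromhum replicate 1. Shares count barcodes recovered after digestion, so a larger share of venular cells and a smaller share of capillary cells in the same total cannot be told apart.

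**Figure D2:**
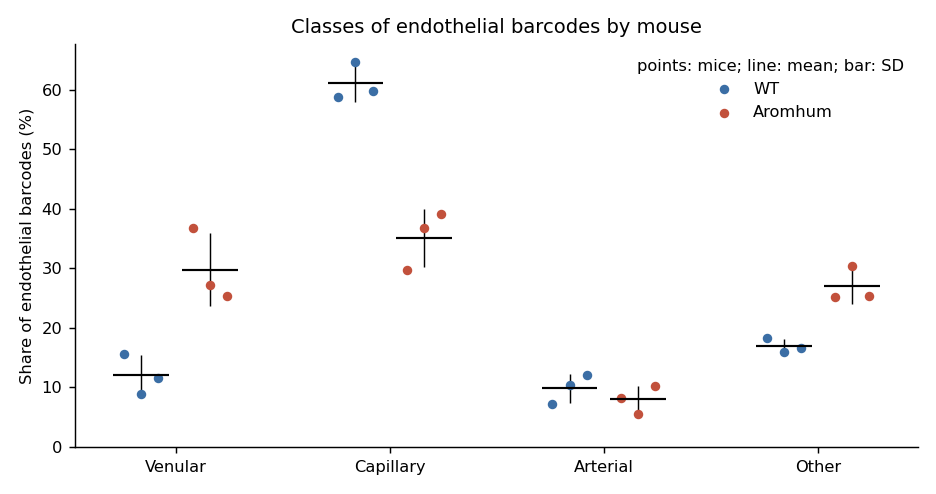
Share (%) of endothelial barcodes that met the venular, capillary or arterial rule or none of them, by mouse, with the mean as a line and the SD as a bar (n = 3 per genotype). Venular shares are 8.91% to 15.7% in WT and 25.4% to 36.8% in Aromhum mice, and capillary shares are lower in every Aromhum mouse than in any WT mouse. Shares that met none of the rules are 15.99% to 18.3% in WT and 25.3% to 30.4% in Aromhum mice.

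The 3 chosen genes are described by genotype, with no test. Cells with all 3 were 77.0% ± 2.31 (SD, n = 3) of venular cells in WT and 75.3% ± 4.13 (SD, n = 3) in Aromhum mice. Each gene was also read in the endothelial cells picked by the other 2 genes. Read so, Selp was at 8527, 9659.6 and 8091 CPM in WT and 7461, 7288 and 8517 CPM in Aromhum mice, a log2 difference of -0.18 on the log2(CPM + 1) scale. Ackr1 was at 3488, 3717 and 2821 CPM in WT and 3867, 2581 and 3409 CPM in Aromhum mice (log2 difference -0.03). Sele was at 749, 703 and 656 and 666, 653 and 804 CPM (log2 difference 0.01). The values of the 2 genotypes overlapped for each of the 3 genes.

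Gene levels between genotypes were then compared on UMIs summed per mouse over the venular cells, with edgeR's quasi-likelihood test, p-values being adjusted by the Benjamini-Hochberg method across the 9909 genes tested. CPM in this comparison carry edgeR's size factors, and fold changes are Aromhum over WT. At an adjusted p of 0.05, 1 gene passed, and it was lower in Aromhum mice. Ier5l, a relative of the immediate early gene Ier5, fell: it was at 98.2, 86.6 and 93.0 CPM in WT and 42.05, 39.1 and 43.9 CPM in Aromhum mice, without overlap (log2 fold change -1.15 ± 0.11 (SE), adjusted p = 0.0381). Of 18 other settings 8 lost the call, over a range of adjusted p from 6.95e-09 to 0.330, with a log2 fold change of -0.73 under the study's own limits on barcodes (at most 2500 genes and 5% mitochondrial UMIs). Capillary cells, where the gene stood higher at 499.8 CPM, had a log2 fold change of -0.92 ± 0.21 (adjusted p = 0.0913). In venular cells with no UMI of Gpihbp1, Rgcc or Car4 it was -0.98 (adjusted p = 0.0985). The part of stray capillary RNA was not tested. In arterial cells the gene fell as well, with a log2 fold change of -1.03 ± 0.18 (adjusted p = 0.0436). Leaving the 6 rule genes that reached the fit aside, the call is 0.0101% of 9903 genes. An unadjusted p under 0.05 was found in 15.9% of them (1578 genes), 7.63% higher and 8.3% lower in Aromhum mice, and in 21.6% the WT and Aromhum mice did not overlap. DESeq2 called 264 genes on the same sums.

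The count of calls rested on single mice. Without Aromhum replicate 3 it was 550 genes, without WT replicate 1 it was 22, and without any of the other 4 mice it was 0. Across genes, the venular log2 levels of Aromhum replicate 3 correlated with those of the WT mice at r = 0.968, 0.958 and 0.971 and with Aromhum replicates 1 and 2 at 0.967 and 0.964, a description with no test. In the text that follows, genes that did not pass are given as values. Each count of list members with an unadjusted p under 0.05 is to be read against the 15.9% of all genes. By side this is 7.63% higher and 8.3% lower. Over all genes, the counts higher and lower at such a p in other settings were as follows. Without WT replicate 1, 2 or 3 they were 861 and 804 of 10282, 604 and 590 of 10327, and 660 and 608 of 10203. Without Aromhum replicate 1, 2 or 3 they were 422 and 493 of 10106, 504 and 553 of 10147, and 971 and 1226 of 10229. They were 354 and 343 of 6896 under the study's limits, and 548 and 586 of 8040 without capillary gene UMIs.

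Adhesion genes of the venular wall showed no passing difference. Of 12 tested members beyond the chosen genes, 4 had an unadjusted p under 0.05 on the higher side and 1 on the lower, with a median log2 fold change of 0.24 beside 0.01 over all genes. Without Aromhum replicate 1 or 3 the higher side held 1 of 12 and 2 of 13. Vcam1 was at 748, 917 and 835 CPM in WT and 1120.4, 937 and 1078 CPM in Aromhum mice, without overlap (log2 fold change 0.33 ± 0.13 (SE), adjusted p = 0.268). Icam1 ranged over 1100.1 to 1385 CPM in WT and 1311 to 1692 CPM in Aromhum mice and overlapped. Alcam, an adhesion molecule of activated leukocytes and endothelium, was at 4.04, 4.69 and 3.59 CPM in WT and 18.2, 12.8 and 6.97 CPM in Aromhum mice, higher in every Aromhum mouse (log2 fold change 1.64 ± 0.38 (SE), adjusted p = 0.154). Mcam, an endothelial junction adhesion molecule, was at 47.1, 49.5 and 71.0 CPM in WT and 90.1, 66.2 and 84.6 CPM in Aromhum mice and overlapped (log2 fold change 0.52 ± 0.19 (SE), adjusted p = 0.239).

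Among the markers, Lrg1 was at 1213, 978 and 1344 CPM in WT and 1866, 1478 and 1592 CPM in Aromhum mice, higher in every Aromhum mouse (log2 fold change 0.48 ± 0.15 (SE), adjusted p = 0.204). Vwf was at 463, 464 and 545 CPM in WT and 637, 509 and 664 CPM in Aromhum mice, with overlap (log2 fold change 0.30 ± 0.14 (SE), adjusted p = 0.336), and Plvap at 1751, 1550.4 and 1685 CPM in WT and 1904, 1493 and 1876 CPM in Aromhum mice (log2 fold change 0.08 ± 0.13 (SE), adjusted p = 0.793). In the wider venular identity list, 5 of 16 members had an unadjusted p under 0.05 on the higher side and 1 on the lower, with a median log2 fold change of 0.26, and 2 of 16 were on the higher side without Aromhum replicate 1. Aplnr, the apelin receptor of veins, was at 34.2, 49.5 and 37.4 CPM in WT and 93.4, 93.4 and 59.2 CPM in Aromhum mice, without overlap (log2 fold change 1.03 ± 0.21 (SE), adjusted p = 0.138). The member on the lower side was Tmem252, described with the capillary comparison below.

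Weibel-Palade body genes lay on both sides. Edn1, the vasoconstrictor endothelin-1, was at 114, 75.9 and 67.1 CPM in WT and 237, 288 and 141 CPM in Aromhum mice, without overlap (log2 fold change 1.37 ± 0.29 (SE), adjusted p = 0.138), while Myrip, which tethers the granules to actin, was at 20.2, 26.02 and 20.5 CPM in WT and 10.8, 11.97 and 12.1 CPM in Aromhum mice, lower in every Aromhum mouse (log2 fold change -0.92 ± 0.17 (SE), adjusted p = 0.121). Angpt2, the Tie2 ligand stored in these granules, ranged over 52.3 to 79.8 CPM in WT and 67.3 to 176 CPM in Aromhum mice and overlapped (log2 fold change 1.01 ± 0.33 (SE), adjusted p = 0.213). Of the 13 tested members, 4 had an unadjusted p under 0.05 on the higher side and 1 on the lower. The higher side held 2 of 13 without WT replicate 2, WT replicate 3 or Aromhum replicate 1. Vasoactive genes had 4 of 15 on the higher side and 2 on the lower. Bdkrb2, the bradykinin B2 receptor, was at 56.0, 49.9 and 46.1 CPM in WT and 117, 143 and 76.1 CPM in Aromhum mice, higher in every Aromhum mouse (log2 fold change 1.14 ± 0.22 (SE), adjusted p = 0.124), and Hrh1, the histamine H1 receptor, was lower in every Aromhum mouse at 97.1, 97.2 and 93.5 CPM in WT and 62.9, 55.3 and 83.3 CPM in Aromhum mice (log2 fold change -0.51 ± 0.16 (SE), adjusted p = 0.201). The receptors for the mediators that open venules therefore stood on opposite sides, neither past the threshold.

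Chemokine and cytokine genes had no common direction, with 1 of 13 tested members on the higher side at an unadjusted p under 0.05 and 2 on the lower, and 4 and 7 of 14 without WT replicate 1. Cxcl9, an interferon-induced chemokine, was at 211, 426 and 289 CPM in WT and 174, 99.0 and 155 CPM in Aromhum mice, without overlap (log2 fold change -1.11 ± 0.28 (SE), adjusted p = 0.175). Cxcl1, a neutrophil chemokine, was at 694, 467 and 525 CPM in WT and 2284, 1503 and 496 CPM in Aromhum mice (log2 fold change 1.34 ± 0.46 (SE), adjusted p = 0.226). Aromhum replicate 3 lay among the WT values there. Pdgfra-positive barcodes held 3235 CPM of Cxcl1. Of 13 cytokine receptor genes, 1 had an unadjusted p under 0.05, Ifngr2, a chain of the interferon gamma receptor (9.96, 13.2 and 8.45 CPM in WT and 21.2, 17.8 and 14.9 CPM in Aromhum mice, log2 fold change 0.79 ± 0.22 (SE), adjusted p = 0.186), and Tnfrsf1b, a TNF receptor, ranged over 44.7 to 49.2 CPM in WT and 46.02 to 62.1 CPM in Aromhum mice with overlap.

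Immediate early genes, which include the transcription factors switched on within minutes of a stimulus or of tissue handling, were the list with the most members on the lower side after capillary identity: 10 of 18 had an unadjusted p under 0.05 and all 10 were lower in Aromhum mice, with a median log2 fold change of -0.40. The count was not as one-sided in cells with no UMI of Gpihbp1, Rgcc or Car4, at 4 lower and 2 higher of 18 (median -0.23), or under the study's limits on barcodes, at 5 lower and 2 higher. Without WT replicate 2, the library with the largest share of barcodes over the mitochondrial limit (29.5%, as given with the cell shares), 13 of 18 were lower at such a p. That share was higher in every WT than in any Aromhum mouse, and its part in these levels was not tested. Egr1 was at 761, 699 and 889 CPM in WT and 336, 345 and 444 CPM in Aromhum mice, without overlap (log2 fold change -1.06 ± 0.15 (SE), adjusted p = 0.107). Hspa1b, a heat shock protein, was at 43.1, 43.1 and 68.2 CPM in WT and 25.4, 21.5 and 23.9 CPM in Aromhum mice (log2 fold change -1.12 ± 0.20 (SE), adjusted p = 0.121). Both genes stood higher in capillary than in venular cells, at 2005 and 283 CPM, and in the capillary cells themselves Hspa1b had a log2 fold change of -1.44 (adjusted p = 0.0126). Among NF-kB targets 2 of 13 members had such a p on the higher side and 4 on the lower, and 1 on the lower without WT replicate 2, WT replicate 3 or Aromhum replicate 2 and 2 without Aromhum replicate 1. Irf1 was at 456, 472 and 591 CPM in WT and 201, 178 and 382 CPM in Aromhum mice, lower in every Aromhum mouse (log2 fold change -0.996 ± 0.28 (SE), adjusted p = 0.186), and Tnfaip2 at 26.9, 28.1 and 39.7 CPM in WT and 46.1, 79.0 and 46.6 CPM in Aromhum mice, higher in every Aromhum mouse (log2 fold change 0.84 ± 0.25 (SE), adjusted p = 0.196).

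Interferon-stimulated genes had 6 of 16 members at an unadjusted p under 0.05, all lower in Aromhum mice, with a median of -0.44. The count was 3 of 16 without WT replicate 2 (median -0.24) and 3 of 16 without Aromhum replicate 2 (median -0.23). Irf7, the master factor of the type I interferon response, was at 79.4, 78.5 and 72.3 CPM in WT and 49.4, 27.9 and 55.2 CPM in Aromhum mice, and Oasl2, an antiviral protein, at 76.4, 95.1 and 80.2 CPM in WT and 47.7, 32.2 and 64.0 CPM in Aromhum mice, both without overlap (adjusted p = 0.188 for each). Of 12 antigen presentation genes, 1 had such a p: B2m, the light chain of MHC class I, at 1294, 1813 and 1368 CPM in WT and 1196, 989 and 1126 CPM in Aromhum mice (log2 fold change -0.43 ± 0.15 (SE), adjusted p = 0.237). Acute phase genes had 3 of 11 on each side. They had 4 higher and 1 lower of 12 without WT replicate 2, and 5 of 12 on each side without Aromhum replicate 3. Socs3, a brake on cytokine signaling, was lower in every Aromhum mouse at 1312, 800.1 and 921 CPM in WT and 452, 215 and 606 CPM in Aromhum mice (log2 fold change -1.25 ± 0.35 (SE), adjusted p = 0.186). C4b, a complement component, was higher in every Aromhum mouse at 11.8, 2.13 and 6.92 CPM in WT and 71.1, 71.3 and 17.9 CPM in Aromhum mice (log2 fold change 2.84 ± 0.61 (SE), adjusted p = 0.138), while Pdgfra-positive barcodes held 322 CPM of it and mesothelial barcodes, whose markers were higher in every Aromhum mouse, 628 CPM. WT replicate 2 lay below the level that the count filter asks of 3 mice, so the WT mice alone would not have brought C4b into the test. Its fold change and p, and its place among the 3 on the higher side, therefore carry no support.

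Genes of capillary identity were lower in the venular cells of Aromhum mice in 11 of 13 tested members at an unadjusted p under 0.05, with a median of -0.84, and Meox2 and Kdr were the other two. Without WT replicate 2 the count was 7 of 13. Rgcc was at 209.6, 375 and 236 CPM in WT and 124, 135 and 119 CPM in Aromhum mice (log2 fold change -1.12 ± 0.21 (SE), adjusted p = 0.124) and Tcf15, a transcription factor of fatty acid uptake, at 54.1, 80.6 and 93.5 CPM in WT and 24.2, 24.5 and 40.8 CPM in Aromhum mice (log2 fold change -1.34 ± 0.26 (SE), adjusted p = 0.124), both without overlap. The capillary share of endothelium was lower in the same mice (above), and Rgcc stood at 1456 CPM in capillary cells. The part of stray capillary RNA was not tested. Cells with no UMI of Gpihbp1, Rgcc or Car4 were 39.4%, 39.1% and 41.2% of venular cells in WT and 62.4%, 64.4% and 47.9% in Aromhum mice, without overlap (exact permutation p = 0.1). Such a share depends on depth. The venular medians were 7196, 9083 and 9395.5 UMIs in WT and 6566.5, 5566 and 9378 in Aromhum mice, and the part of depth was not tested. In the cells with no UMI of these 3 genes, 4 of 8 tested members still had an unadjusted p under 0.05, all lower, with a median of -0.35. Under the study's limits 4 of 10 did. Fatty acid handling genes, 6 of them also in the capillary list, had 5 of 10 on the lower side and 1 on the higher, and 3 of 10 on the lower side without WT replicate 2. Cd36, the fatty acid carrier, was at 738, 1174 and 883 CPM in WT and 517, 491 and 554 CPM in Aromhum mice (log2 fold change -0.84 ± 0.17 (SE), adjusted p = 0.138).

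Notch pathway genes, which favor arterial over venous fate, had 4 of 9 tested members at an unadjusted p under 0.05, all lower in Aromhum mice. Dll1, a Notch ligand, was at 81.5, 93.4 and 88.4 CPM in WT and 48.01, 45.8 and 56.7 CPM in Aromhum mice (log2 fold change -0.80 ± 0.12 (SE), adjusted p = 0.109). Nrarp, a Notch target, was at 11.03, 12.4 and 18.2 CPM in WT and 5.96, 5.59 and 8.79 CPM in Aromhum mice (log2 fold change -1.03 ± 0.27 (SE), adjusted p = 0.18). The arterial list lay on both sides, with 2 of 10 tested members at such a p lower and 1 higher, a median of -0.14, and 0 of 7 members under the study's limits on barcodes. Fbln5, an elastic fiber protein, was the higher one (log2 fold change 0.46 ± 0.18 (SE), adjusted p = 0.282). Sox17, an arterial transcription factor, was lower in every Aromhum mouse at 134, 205 and 163 CPM in WT and 117, 109 and 109 CPM in Aromhum mice (log2 fold change -0.58 ± 0.16 (SE), adjusted p = 0.186), and Dll4 ranged over 11.5 to 15.9 CPM in WT and 7.18 to 8.16 CPM in Aromhum mice. In venular cells with no capillary UMI the log2 fold change of Sox17 was 0.09, and the Notch list had 0 of 6 members at such a p. The list had 1 of 6 under the study's limits, 1 of 8 with the rule applied after thinning and 1 of 9 in the largest stretch of deposited columns. Over all genes, 709 of 8429 were lower at such a p after thinning and 888 of 9079 in that stretch. Junction genes showed Cldn5 at 364, 762 and 852 CPM in WT and 73.3, 191 and 319 CPM in Aromhum mice, lower in every Aromhum mouse (log2 fold change -1.76 ± 0.50 (SE), adjusted p = 0.188), and Cav2, a caveolin, at 114, 155 and 139.9 CPM in WT and 94.0, 82.5 and 99.0 CPM in Aromhum mice (log2 fold change -0.56 ± 0.15 (SE), adjusted p = 0.176).

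Basement membrane genes had 7 of 14 members at an unadjusted p under 0.05 on the higher side and 1 on the lower, with a median of 0.37. Col18a1, whose chain carries the endostatin fragment, was at 33.6, 37.1 and 59.2 CPM in WT and 152, 139 and 109 CPM in Aromhum mice (log2 fold change 1.62 ± 0.23 (SE), adjusted p = 0.107). Lamb1, a laminin chain, was at 43.6, 26.4 and 39.97 CPM in WT and 102, 92.6 and 73.8 CPM in Aromhum mice (log2 fold change 1.27 ± 0.20 (SE), adjusted p = 0.109). Each Aromhum mouse lay above each WT mouse in both. In capillary cells Col18a1 and Lamb1 rose with genotype by the same test (log2 fold changes 1.34 and 0.68, adjusted p = 0.0418 and 0.0385), and the difference from venular cells did not pass (adjusted p = 0.776 and 0.225 in the interaction described below). Pdgfra-positive barcodes held 137 CPM of Lamb1 and mesothelial barcodes 263 CPM of Col18a1, both above the venular means of 64.2 and 90.4 CPM. The summed mesothelial markers were higher in every Aromhum mouse than in any WT mouse. In venular cells left after removing barcodes with a UMI of Ptprc or of at least 3 of 5 fibroblast genes (2496 cells), Col18a1 and Lamb1 passed (log2 fold changes 1.69 and 1.41, adjusted p = 0.0268 and 0.0187), and over all 18 other settings their adjusted p ran from 3.40e-08 to 0.404 and from 1.37e-05 to 0.410. The count of called genes in that set was 100 of 9351, with 60 higher and 40 lower. Fibroblast markers were apart in the same set, with sums of 136 to 179.6 CPM in WT and 238 to 308 CPM in Aromhum mice. Of these markers 3 of 7 were called higher, but the removal itself used fibroblast genes, so these sums and calls are a description. The part of fibroblast RNA in the values of Col18a1 and Lamb1 was not tested.

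Hemostasis and growth factor genes were mixed. Plaur, the urokinase receptor, was lower in every Aromhum mouse at 678, 806 and 691 CPM in WT and 386, 262 and 510.1 CPM in Aromhum mice (log2 fold change -0.91 ± 0.22 (SE), adjusted p = 0.164). Bmp4, a bone morphogenetic protein, was at 280.4, 327 and 281 CPM in WT and 108, 142 and 205 CPM in Aromhum mice, lower in every Aromhum mouse (log2 fold change -0.96 ± 0.22 (SE), adjusted p = 0.147). Of 15 hemostasis genes, 3 had an unadjusted p under 0.05 on the higher side and 1 on the lower, and of 21 BMP and TGF-beta genes, 2 and 1. The BMP and TGF-beta list had 4 and 2 without WT replicate 1, and 8 and 2 without Aromhum replicate 3. Of 14 tested VEGF and angiopoietin genes, 3 were higher and 2 lower at such a p. Among 16 endothelial transcription factors 3 were higher and 2 lower, and 1 and 1 without WT replicate 3 or Aromhum replicate 1. Prdm1 was at 16.95, 9.81 and 7.17 CPM in WT and 40.6, 34.6 and 14.9 CPM in Aromhum mice and in overlap (log2 fold change 1.39 ± 0.42 (SE), adjusted p = 0.199).

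Of the steroid response list, the estrogen receptor gene Esr1 had 56 UMIs over all 2993 cells, and its targets Greb1 and Pgr had 16 and 6, and none of these 3 genes reached the count filter of the genotype test. Of the 8 genes tested, 1 had an unadjusted p under 0.05 on the higher side and 2 on the lower. Fkbp5, a glucocorticoid-induced chaperone, was at 20.2, 16.6 and 17.9 CPM in WT and 43.3, 47.1 and 28.7 CPM in Aromhum mice, higher in every Aromhum mouse (log2 fold change 1.11 ± 0.21 (SE), adjusted p = 0.121), and Tsc22d3, another glucocorticoid-induced gene, was lower at 36.9, 40.9 and 58.2 CPM in WT and 23.8, 20.7 and 34.8 CPM in Aromhum mice (log2 fold change -0.77 ± 0.24 (SE), adjusted p = 0.2). Of 12 proliferation genes 8 reached the count filter, and 1 had an unadjusted p under 0.05 on each side. Pcna, the DNA clamp, was at 142, 163 and 142 CPM in WT and 100.4, 88.8 and 124 CPM in Aromhum mice and Tyms, which makes thymidylate, at 44.7, 38.8 and 34.3 CPM in WT and 53.5, 51.1 and 50.3 CPM in Aromhum mice, on opposite sides (log2 fold changes -0.51 and 0.39, adjusted p = 0.197 and 0.206). Of the mesenchymal transition list, Vim, the intermediate filament of mesenchymal and endothelial cells, was higher in every Aromhum mouse at 2359, 2545 and 2382 CPM in WT and 3987, 2870.0 and 3232 CPM in Aromhum mice (log2 fold change 0.47 ± 0.14 (SE), adjusted p = 0.197), and Snai2, a transition factor, lower at 17.8, 16.6 and 17.4 CPM in WT and 10.4, 11.97 and 14.3 CPM in Aromhum mice (log2 fold change -0.50 ± 0.18 (SE), adjusted p = 0.232).

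Markers of some other cell types were apart between genotypes. The 5 genes with the smallest p on the higher side, none passing, were Upk1b, Krt18, Gmfg, Serpinb2 and Krt7. Upk1b, Krt18 and Krt7 are expressed by mesothelium, and mesothelial barcodes (at least 2 of Msln, Upk3b and Lrrn4, no Cdh5, Pecam1 or Pdgfra) held 692, 1248 and 578 CPM of them. In venular cells Upk1b was at 0.538, 0.427 and 0 CPM in WT and 9.41, 15.4 and 10.6 CPM in Aromhum mice (log2 fold change 5.15 ± 0.55 (SE), adjusted p = 0.0512). Its WT values lie at the floor, as do those of Serpinb2 and Krt7, at no more than 0.256 and 1.08 CPM. These 3 genes reached the count filter through the Aromhum mice, so their fold changes and p carry no support. All 4 mesothelial markers had an unadjusted p under 0.05, higher in Aromhum mice. Lrrn4, at 1.61, 0 and 0 CPM in WT, reached the count filter through the Aromhum mice, so this count carries no support. The summed level of the 4 markers was 1.99 to 18.6 CPM in WT and 63.0 to 101 CPM in Aromhum mice. After the removal of barcodes with other cell types' genes it was 0.281 to 1.27 and 2.61 to 11.1 CPM, and the log2 fold change of Krt18 went from 1.54 to -0.13. Gmfg, an actin regulator of blood and endothelial cells, was at 47.1, 43.1 and 44.3 CPM in WT and 91.3, 86.5 and 73.6 CPM in Aromhum mice (log2 fold change 0.90 ± 0.12 (SE), adjusted p = 0.107). Its level was 363 CPM in Ptprc-positive barcodes (no Cdh5, Pecam1 or Pdgfra), 2.18 CPM in Pdgfra-positive and 2.30 CPM in mesothelial barcodes, and white blood cell markers summed to 707, 501 and 58.3 CPM in the venular cells of Aromhum mice against at most 108 CPM in WT. Serpinb2, Alcam, Ifngr2, Tnfaip2 and Cxcl1, with positive log2 fold changes too, stood at 353, 155, 94.1, 242 and 3705 CPM in Ptprc-positive barcodes, above their venular means of 4.91, 8.57, 14.4, 45.1 and 1018 CPM. The part of RNA from those cells in these values was not tested.

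Glial markers did not overlap between genotypes, with a summed level of 64.0 to 192 CPM in WT and 11.5 to 37.1 CPM in Aromhum mice (exact permutation p = 0.1). White blood cell markers summed to 10.7 to 108 and 58.3 to 707 CPM, fibroblast markers to 302 to 2858 and 1033 to 3012 CPM, and mural markers to 1458 to 1898 and 1004 to 1621 CPM, all with overlap. Muscle fiber, platelet and red cell, and lymphatic lists overlapped too, at sums of up to 3342, 67.9 and 531 CPM. Most of the mural sum was Tagln, at 1332 ± 361 CPM in venular cells (mean ± SD, n = 6), 99.8 CPM in capillary and 123 CPM in arterial cells. Tagln was higher in venular than in capillary cells in all 6 mice, so the mural sum cannot be read as RNA from mural cells. No defining marker was at 0 except the 3 that the rule sets to 0. These sums were also read in other subsets of the venular cells. Without the highest 5% of doublet scores the mesothelial sums overlapped, at 2.14 to 17.7 CPM in WT and 14.3 to 57.5 CPM in Aromhum mice (exact permutation p = 0.2), and so did the glial sums, at 10.3 to 201 and 10.7 to 26.7 CPM (exact permutation p = 0.4). In the largest stretch of deposited columns the glial sums overlapped, at 10.6 to 70.6 and 1.74 to 21.9 CPM (exact permutation p = 0.5), the mesothelial sums were 0.314 to 0.623 and 2.87 to 23.3 CPM, and the log2 fold change of Krt18 was -0.19. These subsets were chosen after seeing the data.

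**Figure D3:**
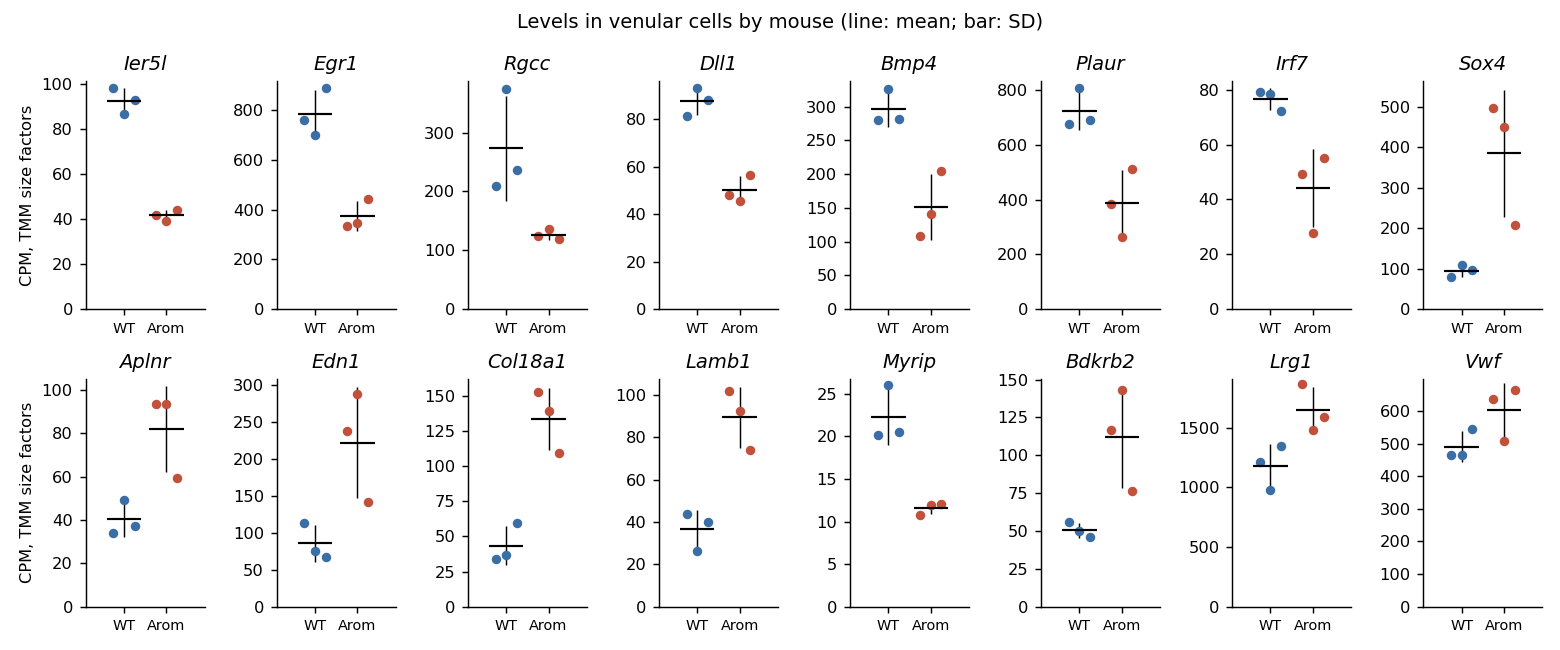
Levels (CPM with edgeR size factors) of 16 genes in venular cells by mouse, with the mean as a line and the SD as a bar (n = 3 per genotype). Ier5l, at 86.6 to 98.2 CPM in WT and 39.1 to 43.9 CPM in Aromhum mice, is the gene that passed, and Vwf is the gene shown whose genotypes overlap.

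**Figure D4:**
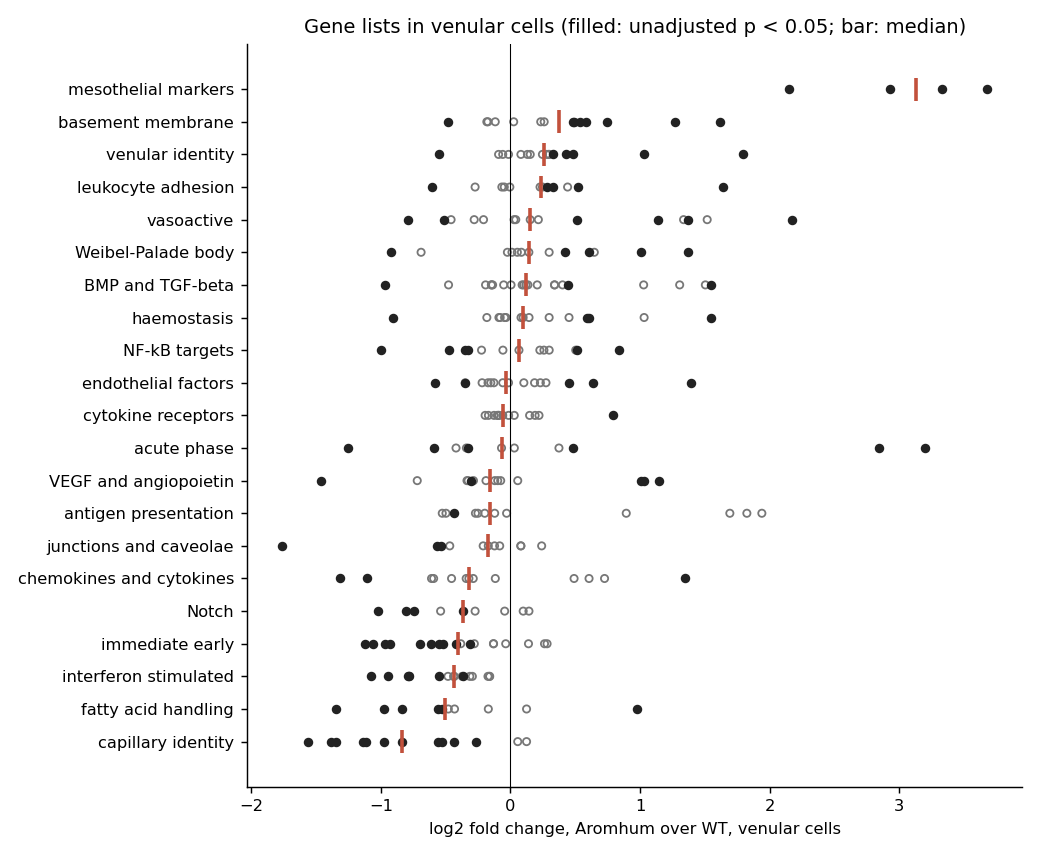
Log2 fold changes (Aromhum over WT) of the tested members of 21 gene lists in venular cells, 1 circle per gene, filled where the unadjusted p is under 0.05, with a bar at the list's median. Of the marker lists of other cell types only the mesothelial one is drawn, and the glial and muscle markers, not drawn, had medians of -1.90 and -1.71. Among the lists drawn, capillary identity has the lowest median (-0.84) and the mesothelial markers have the highest (3.13), and none of the members passed after adjustment.

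Whether genotype acted on venular cells otherwise than on capillary cells of the same mice was tested as an interaction, with the mouse as a term, over 11506 genes. Here 16 genes passed at an adjusted p of 0.05, which is 0.139% of the 11495 genes outside the venular, arterial and capillary rules: 5 (0.0435%) with a higher and 11 (0.0957%) with a lower Aromhum to WT ratio in venular than in capillary cells. At an unadjusted p under 0.05 the share was 13.6%, with 4.83% higher and 8.75% lower. CPM in this comparison carry no size factors. A gene that is not called is not thereby shown to act alike in both classes. All 16 calls were lost without WT replicate 2, WT replicate 3, Aromhum replicate 1 or Aromhum replicate 2, while 13 of them remained among 35 without WT replicate 1 and all 16 among 474 without Aromhum replicate 3.

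Sox4, a transcription factor of many developing tissues, rose in venular relative to capillary cells. It was at 75.6, 101 and 93.9 CPM in venular cells of WT and 518, 485 and 206 CPM in those of Aromhum mice. In capillary cells it was at 83.1, 103 and 94.3 CPM in WT and 142, 125 and 89.7 CPM in Aromhum mice. The venular genotypes were apart and the capillary ones overlapped (log2 difference 1.65 ± 0.17 (SE), adjusted p = 0.0135). Aplnr was at 32.9, 46.1 and 36.2 CPM in venular cells of WT and 97.4, 101 and 59.2 CPM in those of Aromhum mice, and capillary cells had 63.5, 104 and 67.7 CPM in WT and 74.7, 54.3 and 59.2 CPM in Aromhum mice, with overlap (log2 difference 1.34 ± 0.18 (SE), adjusted p = 0.0266). Ankrd37, a target of hypoxia-inducible factor, was at 20.5, 13.1 and 23.3 CPM in venular cells of WT and 64.3, 54.4 and 41.4 CPM in those of Aromhum mice, against 38.96, 35.03 and 34.1 CPM in WT and 39.2, 38.8 and 29.03 CPM in Aromhum mice in capillary cells (log2 difference 1.41 ± 0.20 (SE), adjusted p = 0.0318).

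Klhl24, a ubiquitin ligase adaptor, had the smallest of the higher differences: 33.9, 37.4 and 41.9 CPM in venular cells of WT and 61.0, 85.4 and 46.9 CPM in those of Aromhum mice with 65.5, 75.6 and 75.1 CPM in WT and 57.9, 63.4 and 53.6 CPM in Aromhum mice in capillary cells (log2 difference 0.95 ± 0.15 (SE), adjusted p = 0.0495). The remaining higher call, Mmp12, the macrophage metalloelastase, rested on 50, 47 and 1 UMIs in the venular cells of the Aromhum mice and 0 in those of each WT mouse, and in capillary cells WT replicate 2 had 27.1 CPM. As CPM, Mmp12 was at 8.18, 13.5 and 0.166 in the venular cells of Aromhum replicates 1, 2 and 3. The white blood cell markers of these cells were at 707, 501 and 58.3 CPM, and their part was not tested.

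Among the lower differences, Rgs5, a regulator of G-protein signaling that is strong in pericytes, was at 120.4, 202 and 141 CPM in venular cells of WT and 53.5, 96.0 and 28.3 CPM in those of Aromhum mice. Capillary cells had 483, 511 and 355 CPM in WT and 512, 929 and 363 CPM in Aromhum mice, with overlap (log2 difference -1.93 ± 0.20 (SE), adjusted p = 0.0135). Myc, a growth transcription factor, was at 279, 290.2 and 234 CPM in venular cells of WT and 126, 114 and 168 CPM in those of Aromhum mice and at 70.4, 73.6 and 61.9 CPM in WT and 99.4, 87.6 and 91.0 CPM in Aromhum mice in capillary cells, apart in both classes and in opposite directions (log2 difference -1.50 ± 0.18 (SE), adjusted p = 0.0191). Akap12, a scaffold of protein kinase A, was lower in venular cells of every Aromhum mouse at 686, 975 and 979.9 CPM in venular cells of WT and 256, 401 and 546 CPM in those of Aromhum mice (log2 difference -1.74 ± 0.24 (SE), adjusted p = 0.0297). Pcdh19, a protocadherin, was at 29.8, 35.4 and 39.4 CPM in venular cells of WT and 8.34, 16.05 and 14.8 CPM in those of Aromhum mice, with overlap in capillary cells (log2 difference -1.48 ± 0.23 (SE), adjusted p = 0.0495), and Spsb1, a ubiquitin ligase adaptor, was at 57.5, 58.4 and 64.9 CPM in venular cells of WT and 35.997, 39.5 and 42.8 CPM in those of Aromhum mice (log2 difference -1.28 ± 0.19 (SE), adjusted p = 0.0434). Over all 6 mice Rgs5 and Pcdh19 were at 525 and 62.9 CPM in capillary cells and 107 and 23.9 CPM in venular cells. The part of stray capillary RNA in these 2 calls was not tested.

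A second set of the lower calls stood higher in venular than in capillary cells of WT mice. Hrh1 was at 93.5, 90.6 and 90.4 CPM in venular cells of WT and 65.6, 59.6 and 83.2 CPM in those of Aromhum mice, and at 5.21, 4.28 and 6.23 CPM in WT and 15.5, 13.9 and 13.2 CPM in Aromhum mice in capillary cells (log2 difference -1.88 ± 0.24 (SE), adjusted p = 0.0203). Tmem252, a membrane protein of the venular list, was at 1064, 1175 and 1124 CPM in venular cells of WT and 851, 601 and 1029 CPM in those of Aromhum mice. Its capillary level was 112, 92.8 and 143 CPM in WT and 274, 225 and 238 CPM in Aromhum mice (log2 difference -1.65 ± 0.24 (SE), adjusted p = 0.0434). Slfn2, which restrains growth of lymphoid cells, and Tmem51, a membrane protein of unclear role, had interaction differences of -2.02 ± 0.25 and -1.44 ± 0.18 (SE, adjusted p = 0.0203 for both), with venular means of 267 and 159 CPM in WT against capillary means of 40.5 and 17.2 CPM. In all 4, and in Spsb1 above, every Aromhum mouse lay above every WT mouse in capillary cells and below in venular cells. Some venular marker RNA in capillary cells moved with genotype as well, while the venular share of endothelium was higher in the same mice. Plvap was at 55.8, 26.7 and 44.2 CPM in WT and 420.1, 229 and 80.4 CPM in Aromhum mice. Lrg1 was at 23.98, 11.9 and 20.7 CPM in WT and 214, 116 and 51.2 CPM in Aromhum mice. By edgeR's test Vcam1 had a capillary log2 fold change of 1.07 (adjusted p = 0.075) and Vwf of 0.44 (adjusted p = 0.256). Those of Nr2f2, Emcn and Aplnr were 0.06, -0.11 and -0.38. Myc, Igf1 and Prelp also stood higher in venular than in capillary cells of WT mice and higher in capillary cells of every Aromhum mouse than of any WT mouse. The part of stray venular RNA in these 8 calls was not tested.

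Igf1, the insulin-like growth factor, and Prelp, a matrix proteoglycan, completed the calls. Igf1 was at 96.8, 84.7 and 71.1 CPM in venular cells of WT and 98.3, 93.4 and 71.4 CPM in those of Aromhum mice, in full overlap, and at 19.2, 15.1 and 13.3 CPM in WT and 42.5, 49.2 and 30.2 CPM in Aromhum mice in capillary cells, without overlap (log2 difference -1.37 ± 0.16 (SE), adjusted p = 0.0191). Prelp was at 61.4, 68.0 and 58.7 CPM in venular cells of WT and 38.6, 46.99 and 70.1 CPM in those of Aromhum mice and 26.7, 33.03 and 21.6 CPM in WT and 41.2, 42.04 and 62.7 CPM in Aromhum mice in capillary cells (log2 difference -1.22 ± 0.15 (SE), adjusted p = 0.0191). Both are genes of fibroblasts too, at 358 and 258 CPM in Pdgfra-positive barcodes. Of the 16 genes, 12 had a promoter window in the RefSeq table, which spans the 250 bases before and the 50 after the start. In these windows the NF-kB consensus and the interferon-stimulated response element core were each found for 1 gene, Hrh1, which has several windows, and the estrogen and glucocorticoid response elements for none. Of all windows, 4.51%, 3.44%, 0.0700% and 0.00913% hold these 4 motifs, in the same order.

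**Figure D5:**
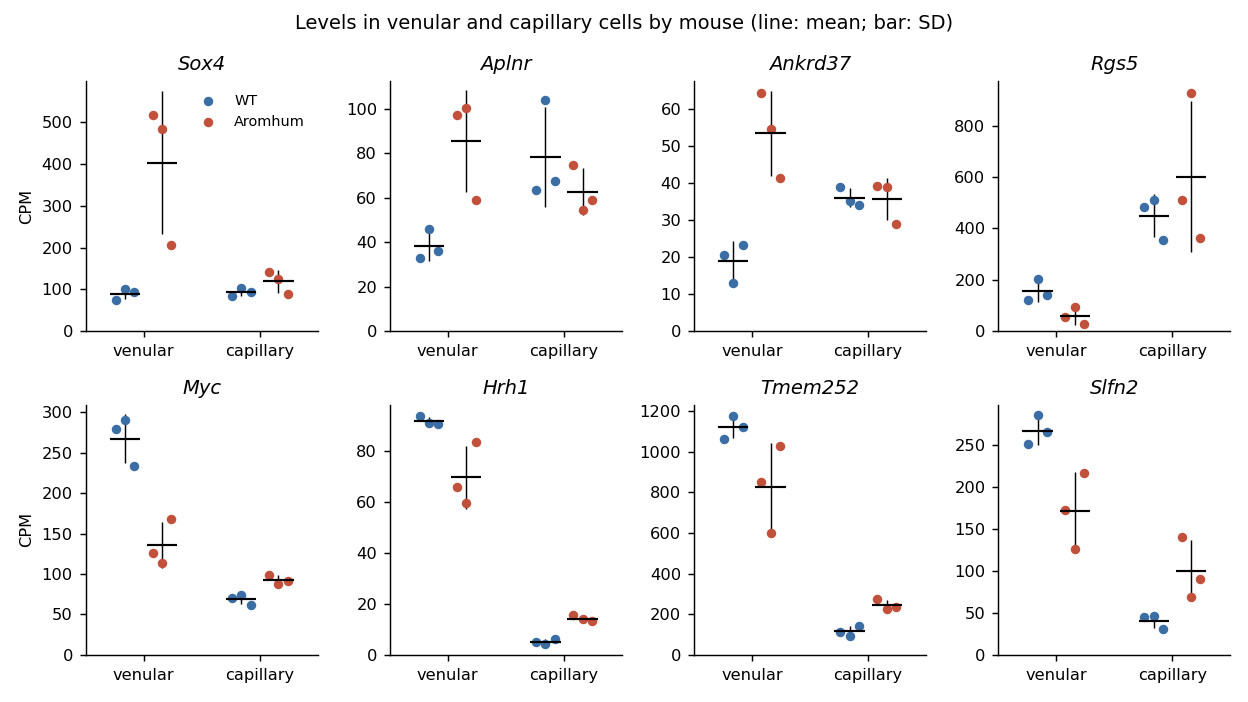
Levels (CPM) of 8 of the 16 genes in venular and capillary cells by mouse, with the mean as a line and the SD as a bar (n = 3 per genotype and class). Sox4 is at 75.6 to 100.6 CPM in WT and 206 to 518 CPM in Aromhum venular cells, while its capillary levels overlap, and Myc is lower in venular and higher in capillary cells of Aromhum mice.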

How the data were processed

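Single-cell libraries (10x, 3' ends) from the lower abdominal muscle of 3 WT and 3 Aromhum mice were used. The authors aligned reads with Cell Ranger 3.0.2 to mm10 with human CYP19A1 added, and the deposited table holds raw UMI counts per gene and barcode of all 6 libraries, not filtered by their limits of 2500 genes and 5% mitochondrial UMIs. Barcodes were chosen by the rule above, and UMIs were summed per mouse. Libraries held 64958237 to 111826460 UMIs and venular sums 2515580 to 6111560. Intervals cover counting error only.

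Sums were tested with edgeR 4.0.16 (TMM, filterByExpr, quasi-likelihood F test, Benjamini-Hochberg at 0.05), and in the interaction with the mouse as a term. DESeq2 1.42.0, limma 3.58.1, other filters, other cell rules and each mouse left out were alternatives. Shares were compared by 2-sided exact permutation over mice. Selp, Ackr1 and Sele chose the cells, so the test planned for them is not reported and their values are a description. The tests were checked on simulated data, with counts drawn independently around 1 mean level per gene. No mouse was set apart, no stray RNA was added and the 2 cell classes shared no mouse effect. The rates that follow need not hold for these data, where single mice moved the count of calls. The genotype test recovered 54.5% of 2-fold and 97.8% of 4-fold changes, and 6.54% of its calls were false. DESeq2 recovered 53.5% and 95.6%, and 9.68% of its calls were false. The interaction test recovered 29% and 78%, and 1.83% of its calls were false. Genes were named by rule: those that passed (up to 12 a direction), or the 5 with the smallest p where none passed, the called interaction genes, the markers and the 2 members of each list with the smallest p. Other named genes, and those of the subsets with no Ackr1 or Sele UMI, were chosen after their values were seen. The cells and lists were chosen with earlier results of these data known. Madcam1, Esr2 and Gp9 of the lists were not in the table. Some list members are counted but not reported here by name. Mice were processed on 3 dates with 1 WT and 1 Aromhum littermate each, and the labels do not tie dates to replicate numbers, so no within-date value was computed. Promoter windows were from RefSeq (GRCm38.p6). No window was in hand for Vwf, Plvap, Aplnr and Myc. Analyses used Python 3.11.15, scipy 1.17.1, scanpy 1.11.5 and R 4.3.3.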

Additional observations from a re-analysis of the deposited data

Results flagged for a closer look

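For 16 genes the Aromhum minus WT difference in venular cells differed from that in capillary cells of the same mice, by edgeR's quasi-likelihood test of the interaction with Benjamini-Hochberg adjustment. On the log2 scale the difference of differences was positive for Sox4 (1.65), Aplnr (1.34), Ankrd37 (1.41), Klhl24 (0.95) and Mmp12 (10.44). The value of Mmp12 depends on the prior count, since no WT venular cell had a UMI of it, and is no bound. It was negative for Rgs5 (-1.93), Myc (-1.50), Akap12 (-1.74), Pcdh19 (-1.48), Spsb1 (-1.28), Hrh1 (-1.88), Tmem252 (-1.65), Slfn2 (-2.02), Tmem51 (-1.44), Igf1 (-1.37) and Prelp (-1.22). Aplnr, Rgs5, Hrh1 and Tmem252 belong to the gene lists, and the other 12 genes to none. Groups of 3 mice are too small for a search for single outlying mice.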

How the results depend on the processing

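The difference in the venular share of endothelium was 17.8 percentage points and 13.1 to 20.0 over the settings tried, with Aromhum mice above WT mice in each. The number of genes called between genotypes was 1 and moved with nearly every setting: 264 with DESeq2 (1354 genes had no adjusted p), 2 with RLE size factors, 15 with no filter on low counts, 14 under the study's limits, 0 with the rule applied after thinning, 16 with all 3 genes required and 100 without barcodes of other cell types. Of settings chosen after seeing the data, removal of the highest 5% of doublet scores gave 0, the largest stretch of deposited columns 28 and cells with no capillary gene 0. Leaving out 1 mouse gave 0 to 550. With edgeR 1578 genes had an unadjusted p under 0.05, and 1308, 1560 and 1136 in the 3 settings with 0 calls. For the interaction, 16 genes became 30 with limma voom (15 shared), 172 with no filter and 12 without doublets (12 shared). Leaving out 1 mouse gave 0 to 474. The cause of these shifts was not tested.

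Whether replicate numbers pair the mice could not be told. Deviations of same-numbered mice correlated at 0.08, -0.10 and 0.27, and only number 3 correlated best with its own number. Values from 3 mice per genotype are too few to decide it. With the replicate block 18 genes were called between genotypes and 52 in the interaction, and the exact sign-flip p of the share difference was 0.25, the smallest that 3 pairs allow.

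Read in cells chosen by the other genes, Ackr1 had a log2 difference of -0.16 to 0.13 and Sele of -0.0896 to 0.0607 with 1 mouse left out. Signs turned for Krt18 (-0.13 without barcodes of other cell types, -0.19 in the largest stretch), Plvap (-0.0147 under the study's limits, -0.0126 after thinning, -0.00412 with all 3 genes and -0.11 with no capillary gene), Sox17 (0.27 under the study's limits, 0.0864 with no capillary gene) and Acta1 (1.39 after thinning, 1.13 with all 3 genes). With 1 mouse left out they turned for Igf1 (-0.19 to 0.0359), Prox1 (-0.92 to 0.36), Hba-a1 (-1.24 to 0.15) and Acta1 (-2.51 to 0.79). Over the named genes and settings of the genotype comparison, 1219 values kept direction and side of the threshold, 157 came to pass, 8 no longer passed and 15 turned. The exact tests of 3 against 3 mice cannot give a p below 0.1. Venular sums were 2515580 to 6111560 UMIs per mouse.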
